A study of Bos taurus with 9 samples.

Results

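The WNT genes described here were 48 genes of the WNT signalling pathway, taken by gene symbol from a fixed list of ligands, secretion factors, receptors, inhibitors, intracellular transducers, nuclear factors and targets. All 48 symbols were found among the 21512 genes of the deposited table. By role they comprised 13 ligands, 2 secretion factors, 10 receptors and co-receptors, 5 secreted or membrane inhibitors, 4 genes of receptor turnover, 3 dishevelled genes, 4 genes of the β-catenin destruction complex, 4 nuclear factors and 3 targets.

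WNT proteins are secreted, lipid-modified ligands. They are acylated by PORCN, carried to the cell surface by WLS and bound there by Frizzled receptors together with the co-receptors LRP5 or LRP6. Without a ligand, a complex of AXIN, APC and the GSK3 kinases marks β-catenin for degradation; with a ligand, dishevelled proteins help to inactivate that complex, and β-catenin enters the nucleus and acts through TCF and LEF factors on targets such as *AXIN2*. Other WNT ligands act without β-catenin, through planar cell polarity or calcium. In mammalian embryos WNT signalling is known for its part in primitive streak formation, of which *TBXT* (Brachyury) is a marker.

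Libraries were made from individual *in vitro* produced bovine blastocysts on D8, 5 wild-type (WT) and 4 *TEAD4* knockout (KO), with 1 library per embryo. WT embryos had been injected with *Cas9* mRNA alone, and KO embryos with *Cas9* mRNA and a guide against the fourth exon of *TEAD4*, a transcription factor of the Hippo pathway; KO embryos carried only alleles with frame-disrupting indels, which arise at random and can differ between embryos. All embryos came from oocytes of slaughterhouse ovaries and were cultured in synthetic oviduct fluid. Each sample was a whole blastocyst, inner cell mass and trophectoderm (TE) together, so fewer cells of a type and less RNA per cell cannot be told apart.

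Values are in TPM, a unit of transcript abundance that corrects for transcript length and sums to the same total in each library. The number of reads is not kept in TPM, so the depth behind each value is unknown and no counting interval is given. Where the values of a gene are listed by embryo, they run from WT_1 to WT_5 for WT and from TE_1 to TE_4 for KO, named after the columns of the table. Genes above 0 TPM numbered between 14776, in TE_1, and 16678, in WT_3. All markers looked up for trophectoderm (6 genes), epiblast (3) and hypoblast (4) were above 0 in every library. The *TEAD4* transcript itself stood at 18.0, 52.5, 54.3, 36.5 and 43.4 TPM across the WT embryos, and at 42.8, 41.8, 12.5 and 22.2 TPM across the KO embryos, so that the groups overlapped (log2 fold change −0.51, SE 0.42, adjusted p = 0.947, limma with Benjamini-Hochberg adjustment). A frame-disrupting indel need not lower the amount of transcript, so this level is not a check of the genotype labels. No batch is named in the sources, and nothing in them says whether embryos of a group came from separate oocyte collections, so p-values measure the spread between these embryos.

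The question put to the WNT genes was whether their transcripts differed between KO and WT blastocysts. No member was called changed (0 of 39 tested), and *WNT6* was the leading ligand transcript and *FZD3* the leading receptor transcript in all 9 libraries. Of the 39 tested members, only *GSK3A* had WT and KO values without overlap. Of all tested genes, 1.23% were lower in KO without overlap and 0.801% higher. *GSK3A* was at 21.1 ± 2.74 TPM among WT embryos (SD, n = 5) and 12.3 ± 2.59 TPM among KO embryos (SD, n = 4). *TBXT* was listed at 0 in all WT libraries and between 0.149 and 0.418 TPM in all KO libraries.

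A gene was tested when its median over the 9 libraries exceeded 0.1 TPM, which 39 of the 48 members and 67.9% of all genes in the table did. The 9 members under that level were *WNT3*, *WNT7B*, *WNT8A*, *WNT10B*, *FZD2*, *FZD8*, *SFRP2*, *LEF1* and *TBXT*. Tests were made with limma on log2(TPM + 1) over all 14599 genes that passed, and a gene was called changed at an adjusted p under 0.05 with a fold change above 2. Of all tested genes, 3 were called (0.0205%), the histone genes *H2AC18* and *H2BC5*, higher in KO, and a gene listed by an Ensembl identifier, lower in KO. Fold changes are given as KO minus WT on that log2 scale, which understates the change of genes with low TPM. Adjusted p-values of the members lay between 0.678 and 0.998.

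Before adjustment, 4 of the 39 tested members had p under 0.05 and lower values in KO, *GSK3A*, *WNT2B*, *TCF7L1* and *AXIN1*, where 3.83% of all tested genes did so. Counted in either direction, members with p under 0.05 numbered 2 with size factors, without WT_2 or without WT_5. Under the other alternatives they numbered between 3 and 5. With size factors or quantile normalization, *TCF7L1* and *AXIN1* no longer had an unadjusted p under 0.05 (limma). Under the settings given first, none had p under 0.05 and higher values in KO, against 2.07% of all tested genes. With quantile normalization *WNT9A* did (log2 fold change 0.37, unadjusted p = 0.0299, limma). Without TE_4 *WNT11* did (log2 fold change 0.82, unadjusted p = 0.0433, limma). The groups did not overlap, with KO lower, for 1 member of 39, against 1.23% of all tested genes, and with KO higher for 0 of 39, against 0.801%. The log2 fold change was below 0 for 24 of the 39 members (61.5%), against 55.8% of all tested genes. The median log2 fold change was −0.11 over the members and −0.046 over all tested genes. Without TE_1, 20 of 40 members tested lay below 0 (50.0%), against 45.7% of all genes then tested.

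**Figure D1:**
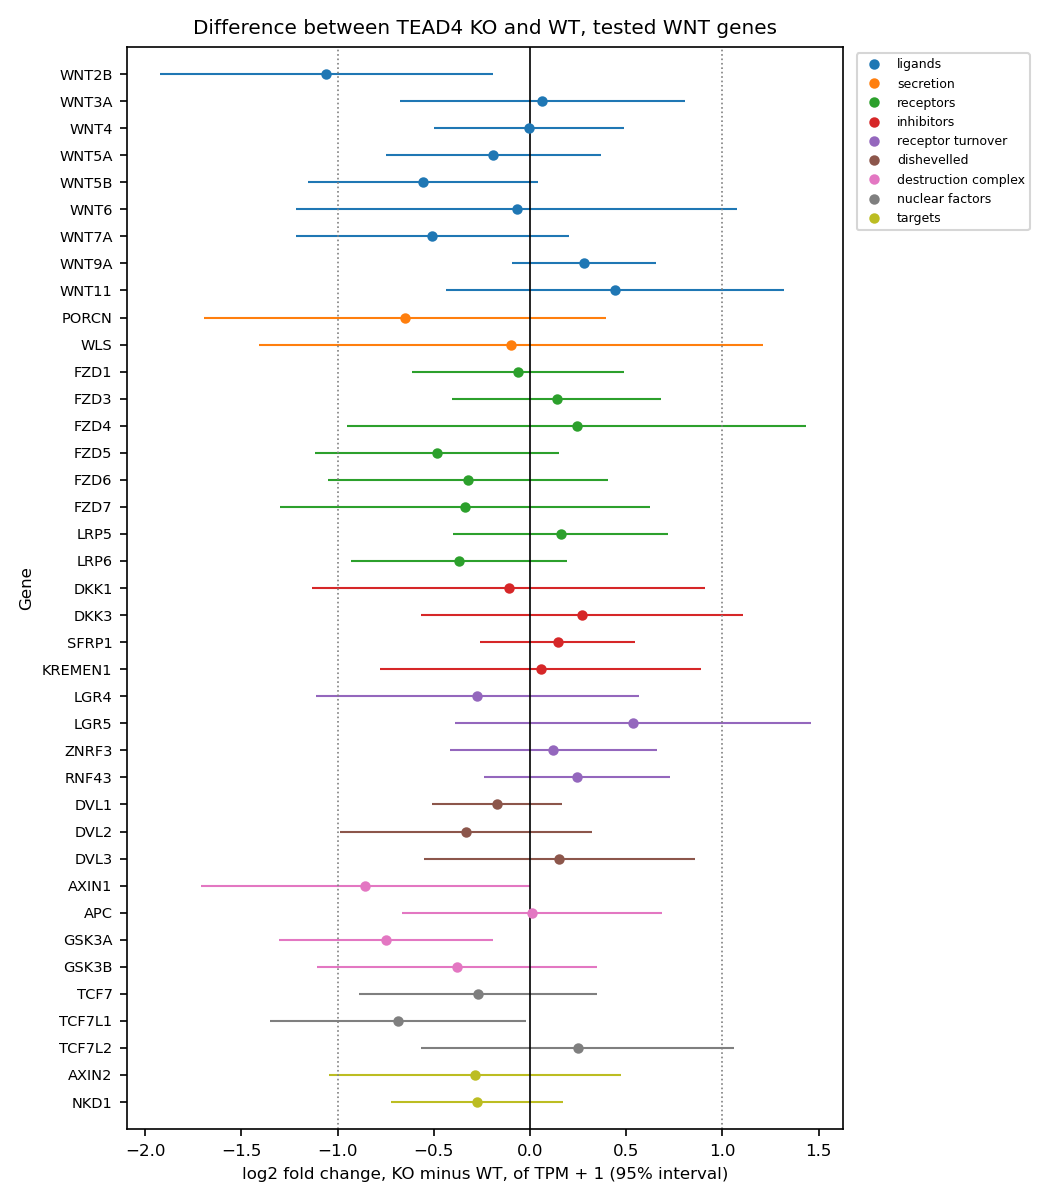
Log2 fold change (KO minus WT, of TPM + 1) of the 39 tested WNT genes, with points for the estimate, bars for the 95% interval from limma and colours for the role. Dotted lines mark a 2-fold difference of TPM + 1 in either direction. Of the 39 intervals, 18 lie inside them, and estimates range from −1.06 for *WNT2B* to 0.54 for *LGR5*.

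The intervals show how far each gene was bounded on the scale of log2(TPM + 1). The 95% interval lay inside a 2-fold difference in both directions for 18 of 39 members (46.2%), against 56.8% of all tested genes. Among genes with a median above 1 TPM, this held for 7 of 22 members (31.8%), against 50.1% of all genes at that level. For the other members the interval reached past 2-fold in at least 1 direction, so the absence of a call does not show equal levels. At low TPM the pseudocount of 1 narrows the interval, which then does not bound the ratio of TPM. *WNT9A* lay inside (−0.093 to 0.65), with means of 0.144 TPM in WT and 0.406 TPM in KO. With a pseudocount of 0.1 TPM its log2 fold change was 1.04.

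**Figure D2:**
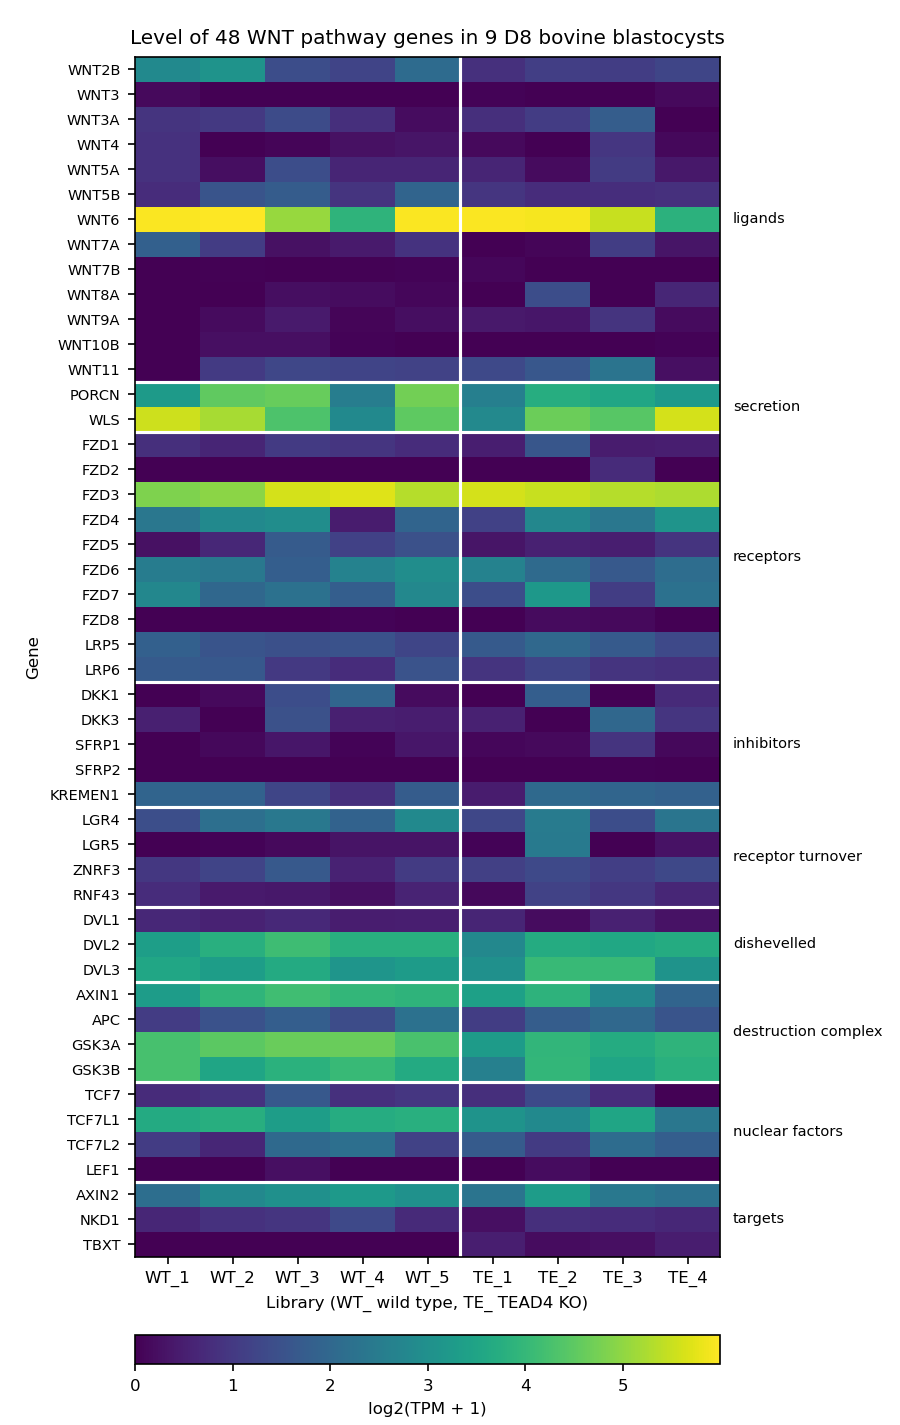
Heat map of the 48 WNT genes (rows, by role) in the 9 libraries (columns, WT left and KO right of the white line), coloured by log2(TPM + 1). *WNT6* and *FZD3* lead the ligands and the receptors in both genotypes, at medians of 59.6 and 39.5 TPM over the 9 libraries.

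*WNT6* dominated the ligands. It stood at 61.6, 62.8, 32.4, 14.0 and 60.9 TPM across the WT embryos, and at 61.1, 59.6, 44.4 and 13.4 TPM across the KO embryos. Each genotype thus held an embryo with a low level, WT_4 and TE_4, and the ranges overlapped almost entirely. The means were 46.3 ± 22.1 TPM among WT embryos (SD, n = 5) and 44.6 ± 22.2 TPM among KO embryos (SD, n = 4), with a log2 fold change of −0.069 (SE 0.52, 95% interval −1.21 to 1.07, adjusted p = 0.994, limma). Without TE_4 it was 0.42. *WNT6* made up between 71.0% and 92.4% of the summed ligand TPM of a library. Among all genes of a library it ranked between 1974 and 5417 from the top. The total of the 13 ligands was 56.3 ± 24.6 TPM among WT embryos (SD, n = 5) and 51.7 ± 23.4 TPM among KO embryos (SD, n = 4).

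**Figure D3:**
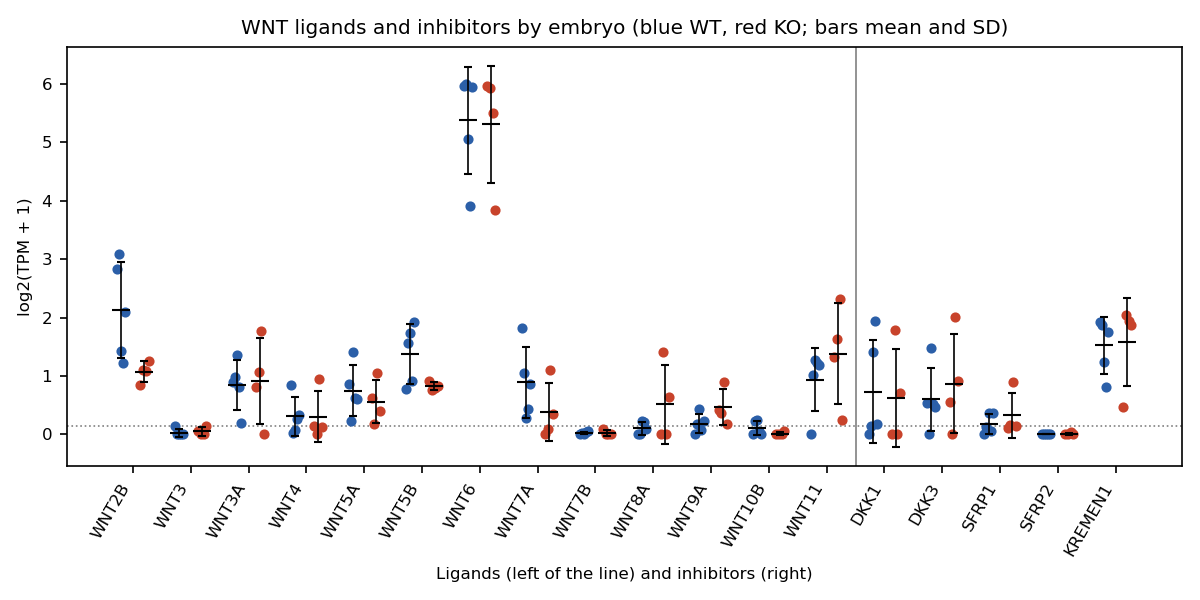
Level, as log2(TPM + 1), of the 13 WNT ligands and the 5 inhibitors, with points for embryos (WT in blue, KO in red), bars for the mean and SD of each genotype and a dotted line at 0.1 TPM, above which the median of a gene had to lie for it to be tested. *WNT6* stands apart from all other ligands, and 9 ligands and 4 inhibitors have a median above the line.

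Of the 13 ligands, 9 had a median above 0.1 TPM. After *WNT6* came *WNT2B* at 1.40 TPM and *WNT11* at 1.34 TPM, both widely spread over embryos. *WNT5B*, with a median of 0.880 TPM, and *WNT3A*, with 0.856 TPM, followed. *WNT3A* encodes a classical activator of β-catenin, and *WNT5A* and *WNT11* encode ligands known mainly for β-catenin-independent signalling. *WNT5A* had a median of 0.533 TPM, *WNT7A* of 0.347 TPM, *WNT9A* of 0.169 TPM and *WNT4* of 0.108 TPM, just inside the threshold. *WNT8A* lay just outside it at 0.0730 TPM, and its median was 0.283 TPM within the KO libraries alone, where TE_2 held 1.66 TPM and TE_4 0.567 TPM. *WNT3*, *WNT7B* and *WNT10B* had medians of at most 0.00945 TPM. Neighbours in this order from *WNT2B* to *WNT7A* overlapped in their spread over embryos.

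*WNT2B* had the lowest fold change of the members. Its values were 6.14, 7.48, 1.69, 1.34 and 3.26 TPM across the WT embryos, and 0.793, 1.16, 1.12 and 1.40 TPM across the KO embryos. The KO embryos were close together and low, and only WT_4 of the WT embryos reached down to them. The log2 fold change was −1.06 (SE 0.40, unadjusted p = 0.0208, adjusted p = 0.745, limma; exact permutation test, two-sided, p = 0.0317). In the RefSeq annotation *WNT2B* overlaps *ST7L*, so reads of that gene could count towards it. The same holds for *WNT5B* with *FBXL14*, *KREMEN1* with *EMID1*, *DVL1* with *TAS1R3* and *LEF1* with *LOC132345570*.

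*WNT5B* showed a similar spread. WT embryos stood at 0.705, 1.94, 2.33, 0.880 and 2.80 TPM, and KO embryos at 0.889, 0.689, 0.730 and 0.779 TPM. KO embryos again clustered at the level of the 2 lowest WT embryos (log2 fold change −0.56, SE 0.27, adjusted p = 0.847, limma; exact permutation test, two-sided, p = 0.111). The fold changes of the other tested ligands were −0.51 for *WNT7A*, −0.19 for *WNT5A*, −0.0037 for *WNT4*, 0.065 for *WNT3A*, 0.28 for *WNT9A* and 0.44 for *WNT11*, each with an interval that included 0. The sign for *WNT3A* turned with a smaller pseudocount and that for *WNT4* with other scalings.

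WNT genes often lie in neighbouring pairs. By the RefSeq annotation, *WNT6* neighbours *WNT10A*, and their mean levels over the 9 libraries were 45.6 and 1.16 TPM. *WNT3A* neighbours *WNT9A*, at 0.955 and 0.260 TPM. The high level of *WNT6* was thus not shared by its neighbour.

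Both secretion factors were well above the threshold. *PORCN*, the acyltransferase of WNT proteins, stood at 8.64, 22.2, 23.2, 4.80 and 25.3 TPM across the WT embryos, and at 5.05, 12.2, 10.8 and 8.50 TPM across the KO embryos. The 3 highest values were from WT embryos, but WT_4 was the lowest of all (log2 fold change −0.65, SE 0.48, adjusted p = 0.934, limma). *WLS*, the carrier of WNT ligands, spanned 6.17 to 45.2 TPM in WT and 6.05 to 47.6 TPM in KO. Its log2 fold change of −0.10 had the largest SE of the tested members (0.60).

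*FZD3* was the leading receptor transcript, with 57.1% to 79.8% of the summed TPM of the 10 receptors and co-receptors. Its values were 27.4, 29.9, 47.5, 50.7 and 39.1 TPM across the WT embryos, and 47.6, 43.9, 39.5 and 37.0 TPM across the KO embryos. All KO values lay within the range of WT (log2 fold change 0.14, SE 0.25, adjusted p = 0.982, limma). *FZD4* followed by mean level, at 4.05 ± 2.57 TPM among WT embryos (SD, n = 5) and 4.71 ± 2.70 TPM among KO embryos (SD, n = 4), with WT_4 low at 0.365 TPM. The other 6 tested receptors, *FZD1*, *FZD5*, *FZD6*, *FZD7*, *LRP5* and *LRP6*, had fold changes between −0.48 and 0.16, and the receptor total was 57.4 ± 8.55 TPM among WT embryos (SD, n = 5) and 58.7 ± 7.03 TPM among KO embryos (SD, n = 4). *FZD2* was above 0 in TE_3 only, and *FZD8* did not exceed 0.130 TPM in any library.

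Of the 5 inhibitors, 4 had a median above 0.1 TPM. *KREMEN1*, a receptor for Dickkopf proteins, was the most abundant, with a median of 2.65 TPM, followed by *DKK3* at 0.447 TPM and *DKK1*, an antagonist of the LRP co-receptors, at 0.134 TPM. *SFRP1*, a soluble Frizzled-related antagonist, was at 0.1002 TPM, marginally inside the threshold, and at 0.0980 TPM in WT alone. *SFRP2* was above 0 in TE_3 only, at 0.0303 TPM. *DKK1* differed strongly between embryos of the same genotype, with 0, 0.103, 1.65, 2.86 and 0.134 TPM across the WT embryos, and 0, 2.44, 0 and 0.642 TPM across the KO embryos. *KREMEN1* stood at 2.81, 2.67, 1.37, 0.758 and 2.36 TPM in WT and at 0.380, 3.12, 2.86 and 2.65 TPM in KO, where TE_1 alone was low. Fold changes of the 4 tested inhibitors lay between −0.11 for *DKK1* and 0.27 for *DKK3*, with adjusted p-values of at least 0.982 (limma), and the sign for *KREMEN1* turned with a smaller pseudocount.

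R-spondins bind LGR receptors and thereby keep the ubiquitin ligases ZNRF3 and RNF43 from removing Frizzled receptors. *LGR4* led the 4 genes of receptor turnover in every library, at 1.70, 3.55, 4.30, 2.67 and 6.14 TPM across the WT embryos, and at 1.41, 4.61, 1.67 and 4.02 TPM across the KO embryos (log2 fold change −0.27, SE 0.38, adjusted p = 0.982, limma). *ZNRF3* was at 1.20 ± 0.633 TPM among WT embryos (SD, n = 5) and 1.32 ± 0.175 TPM among KO embryos (SD, n = 4). *RNF43* had a log2 fold change of 0.25. *LGR5*, a known target of the pathway, was at or under 0.249 TPM in 8 libraries and at 4.58 TPM in TE_2, which set its KO mean of 1.21 ± 2.25 TPM (SD, n = 4). Among the R-spondins, which belong to the other pathway genes described further on, *RSPO3* was the one detected throughout, at 2.47, 2.78, 4.33, 9.91 and 16.6 TPM in WT and 2.46, 4.86, 5.13 and 18.4 TPM in KO, whereas *RSPO1*, *RSPO2* and *RSPO4* had medians of 0.

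Dishevelled genes relay the signal from the receptors. *DVL2* stood at 9.19, 12.8, 16.6, 12.7 and 12.8 TPM across the WT embryos, and at 5.91, 12.0, 10.9 and 11.9 TPM across the KO embryos, with TE_1 below the other KO embryos (log2 fold change −0.33, SE 0.30, adjusted p = 0.956, limma). *DVL3* was at 9.57 ± 1.59 TPM among WT embryos (SD, n = 5) and 11.4 ± 4.75 TPM among KO embryos (SD, n = 4), and *DVL1* was under 1 TPM in every library. The total of the 3 genes was 22.9 ± 3.44 TPM in WT and 21.9 ± 6.65 TPM in KO (SD, n = 5 and 4).

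The destruction complex held the lowest fold changes after *WNT2B*. *GSK3A*, which encodes a kinase that phosphorylates β-catenin within the complex and acts in other pathways too, stood at 17.9, 21.5, 23.8, 23.5 and 18.5 TPM across the WT embryos, and at 8.74, 14.5, 11.9 and 13.8 TPM across the KO embryos. Every KO value lay below every WT value. The log2 fold change was −0.75 (SE 0.26, 95% interval −1.30 to −0.19) with an unadjusted p of 0.0126 and an adjusted p of 0.678 (limma). The exact permutation test (two-sided) gave p = 0.0159, the smallest p that splits of 9 embryos can give, as it does for every gene without overlap. When each library was left out in turn, the fold change stayed between −0.83 and −0.61.

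*AXIN1*, the scaffold of the complex, stood at 8.97, 14.2, 16.9, 14.6 and 14.0 TPM across the WT embryos, and at 9.61, 13.6, 5.93 and 2.83 TPM across the KO embryos. TE_3 and TE_4 were below all WT embryos, and TE_1 and TE_2 were within their range (log2 fold change −0.86, SE 0.39, adjusted p = 0.836, limma; exact permutation test, two-sided, p = 0.0794). Without TE_4 its fold change was −0.50. *GSK3B*, the paralogue of *GSK3A*, stood at 18.0, 10.5, 13.3, 15.4 and 11.6 TPM in WT and at 5.08, 14.7, 10.5 and 13.0 TPM in KO, with a log2 fold change of −0.38 (SE 0.33) that was −0.088 without TE_1. *APC* was at 2.15 ± 0.989 TPM among WT embryos (SD, n = 5) and 2.14 ± 0.797 TPM among KO embryos (SD, n = 4).

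Summed over the 4 genes, the complex was at 50.7 ± 4.73 TPM (SD, n = 5) in WT, from 46.0 to 56.5 TPM, and at 33.2 ± 8.66 TPM (SD, n = 4) in KO, from 24.6 to 45.2 TPM, and the groups did not overlap. Without *GSK3A* they did, with 26.6 to 32.7 TPM in WT and 15.8 to 30.7 TPM in KO. The median log2 fold change of the 4 genes was −0.56. The genes were chosen with earlier results of these data known, so no test is given for the sum.

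**Figure D4:**
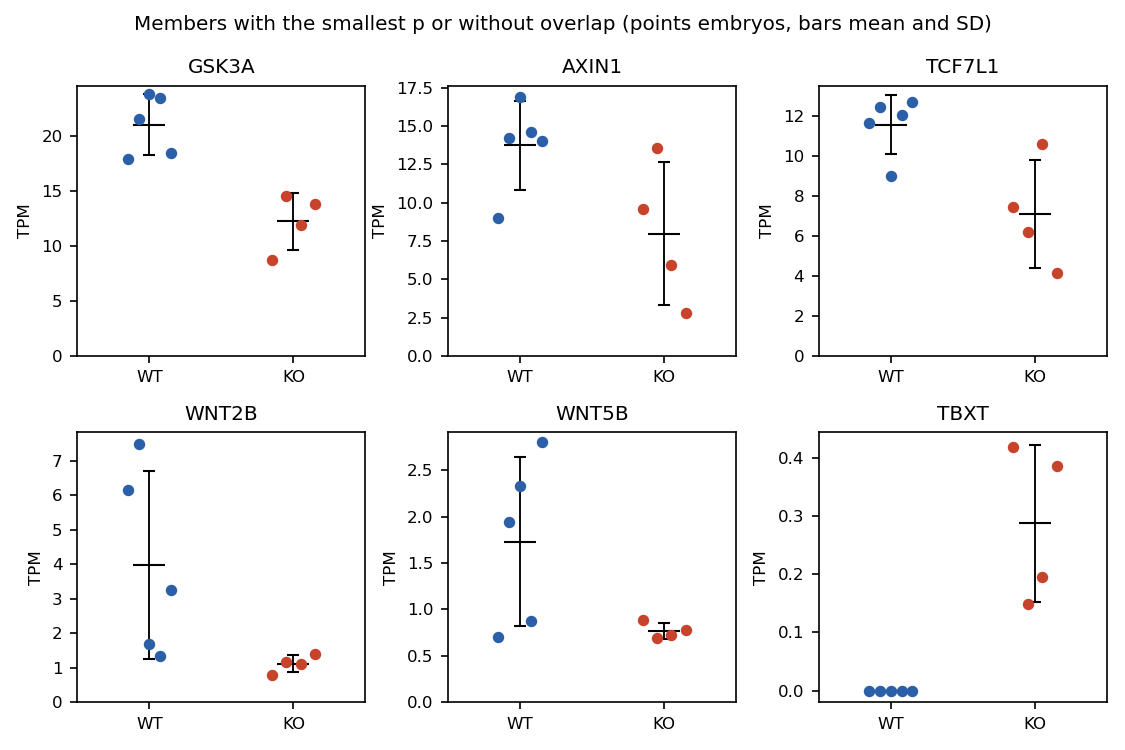
TPM of the 5 members with the smallest unadjusted p-values and of *TBXT* in each embryo (linear axes), with horizontal bars for the mean and the SD of 5 WT and 4 KO embryos. *GSK3A* and *TBXT* are the genes without overlap between the genotypes, and the KO points of *WNT2B* and *WNT5B* lie together at the low end of WT.

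TCF and LEF factors bind DNA and recruit β-catenin. *TCF7L1*, which acts mainly as a repressor, was the most abundant of the 4, at 11.7, 12.5, 9.04, 12.1 and 12.7 TPM across the WT embryos, and at 7.44, 6.21, 10.6 and 4.17 TPM across the KO embryos. TE_3 exceeded WT_3, and all other KO values were below all WT values (log2 fold change −0.69, SE 0.30, adjusted p = 0.833, limma; exact permutation test, two-sided, p = 0.0317). *TCF7L2* was at 1.92 ± 1.34 TPM among WT embryos (SD, n = 5) and 2.30 ± 0.948 TPM among KO embryos (SD, n = 4), *TCF7* had a log2 fold change of −0.27, and *LEF1* did not exceed 0.194 TPM. β-catenin itself (*CTNNB1*, from the other pathway genes) stood at 158, 142, 138, 81.8 and 140 TPM in WT and at 71.0, 218, 78.0 and 99.5 TPM in KO. TE_2 was the highest and TE_1 the lowest of the 9 (log2 fold change −0.29, SE 0.33, adjusted p = 0.971, limma). Its fold change was −0.64 without TE_2 and −0.11 without TE_1. β-catenin is regulated largely through its protein stability, which these transcript levels do not measure.

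*AXIN2*, a general target and feedback inhibitor of the pathway, stood at 3.52, 5.99, 7.09, 8.37 and 7.16 TPM across the WT embryos, and at 3.91, 8.99, 4.29 and 3.75 TPM across the KO embryos. In TPM as deposited TE_2 was the highest of all embryos, and the other 3 KO embryos stood with WT_1 at the low end (log2 fold change −0.28, SE 0.35, 95% interval −1.04 to 0.47, adjusted p = 0.978, limma). *NKD1*, another feedback inhibitor, was at 0.883 ± 0.377 TPM among WT embryos (SD, n = 5) and 0.550 ± 0.250 TPM among KO embryos (SD, n = 4) (log2 fold change −0.28, SE 0.21).

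*TBXT* stood at 0 TPM in all 5 WT libraries, and at 0.418, 0.149, 0.195 and 0.386 TPM across the KO embryos. With a median of 0 over the 9 libraries it was not tested with limma, and no fold change against 0 is given. It was named because its groups did not overlap. Every such gene has p = 0.0159 by the exact permutation test (two-sided), the smallest possible, so that p adds nothing to the lack of overlap. In the whole table, 3 genes (0.0139%), *TBXT*, *KCNA2* and *TRBV24-1*, were at 0 in every WT and above 0 in every KO library, and 22 genes showed the reverse. The values were low, and since depth is unknown, a listed 0 in WT does not show absence.

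Another 60 genes of the pathway were looked up from a second fixed list of ligands, R-spondins, receptors, inhibitors, β-catenin regulators, nuclear cofactors, targets and planar polarity genes. Of these, 37 were tested and 0 were called changed. Values were lower in KO for 21, where 55.8% of all tested genes were, and higher for 16, with a median log2 fold change of −0.082. Before adjustment, 2 had p under 0.05 and lower values in KO, *ROR1* and *MYC*, against 3.83% of all tested genes, and 0 had higher values. *ROR1*, a receptor for WNT5A, is also named in the study's supplementary table of differentially expressed genes, drawn from these samples with DESeq2. It stood at 0.501, 0.189, 0.102, 0.572 and 0.677 TPM across the WT embryos, and at 0, 0.0346, 0.0475 and 0 TPM across the KO embryos. It was the only gene of the 37 without overlap between the groups, where 1.23% of all tested genes were lower in KO without overlap (log2 fold change −0.45, SE 0.16, unadjusted p = 0.0145, adjusted p = 0.708, limma). Its means were 0.409 TPM in WT and 0.0205 TPM in KO, and its fold change lay between −1.92 and −0.37 under other settings with all 9 libraries. *MYC*, named after its values were seen, was at 12.3 ± 4.95 TPM among WT embryos (SD, n = 5) and 5.41 ± 3.29 TPM among KO embryos (SD, n = 4) (log2 fold change −1.22, SE 0.50, adjusted p = 0.784, limma). *CCND1*, a cyclin often counted among the targets, had a log2 fold change of −0.32 (SE 0.46), which was −0.81 without TE_3, −0.0027 without TE_4 and −1.14 with a pseudocount of 0.1 TPM.

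The leading member of each role was then set against the cell type markers, as the mean z-score of each marker list, over all 9 libraries. Of 27 relations between 9 genes and 3 lists, none passed the adjustment by Pearson's r. The strongest by r was *WNT6* with the trophectoderm score (r = 0.865, two-sided p = 0.00694 by exact permutation, adjusted to 0.134; Spearman's rho = 0.617, p = 0.0857, adjusted to 0.231). It rested on WT_4 and TE_4, which were low in both, and r was 0.517 without them. With the mean of each genotype removed, r was 0.865, and with fewer than 6 embryos per genotype no r is given within one. By rank, *DVL2* with the hypoblast score passed the adjustment (rho = 0.917, two-sided p = 0.00131 by exact permutation, adjusted to 0.0354; Pearson's r = 0.703, p = 0.00994, adjusted to 0.134). Its r was 0.694 without WT_3 and WT_5 and 0.601 with the genotype means removed. *GSK3A* had r = 0.757 and rho = 0.817 with the hypoblast score (two-sided p = 0.0149 and 0.0108 by exact permutation, adjusted to 0.134 and 0.145). Its r was 0.840 without the same 2 embryos and fell to 0.350 with the genotype means removed. *FZD3* with the epiblast score had an r between those of *WNT6* and *GSK3A* (r = 0.785, two-sided p = 0.0216 by exact permutation, adjusted to 0.146). By rank its rho was 0.633 (p = 0.0760 by exact permutation, adjusted to 0.228). The r of *FZD3* was 0.749 without TE_3 and WT_1 and 0.800 with the genotype means removed.

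**Figure D5:**
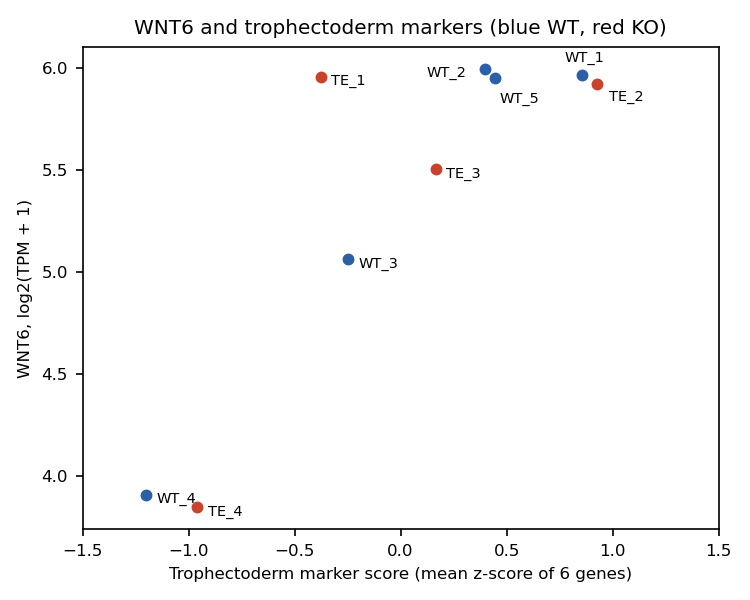
*WNT6* level, as log2(TPM + 1), against the trophectoderm marker score (mean z-score of 6 genes) for each of the 9 embryos, WT in blue and KO in red. WT_4 and TE_4 sit at the lower left, and the other 7 embryos show a weaker relation (r = 0.517).

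Marker sums overlapped between the genotypes. The trophectoderm sum ranged from 4013 to 17916 TPM in WT and from 6585 to 12378 TPM in KO, the epiblast sum from 777 to 2045 TPM and from 1358 to 2166 TPM, and the hypoblast sum from 81.6 to 145 TPM and from 43.6 to 151 TPM. *GATA6* made up most of the hypoblast sum, whereas the hypoblast score weights the 4 markers alike. That score was −0.55, 0.43, 0.57, 0.49 and 1.12 among WT embryos and −0.81, −0.29, −0.36 and −0.61 among KO embryos, so that 4 of 5 WT embryos lay above all KO embryos. Of the 4 hypoblast markers, *GATA4* did not overlap between the genotypes, with values lower in KO (adjusted p = 0.684, limma). Of all tested genes, 1.23% were lower in KO without overlap. *GATA6*, *SOX17* and *PDGFRA* overlapped. Markers of cumulus and granulosa cells, which surround the oocyte, summed to 14.8 to 27.8 TPM in WT and 2.66 to 25.3 TPM in KO, with 2 of 6 above 0 in every library, and sperm markers summed to 1.66 to 121 TPM and 0.779 to 74.9 TPM, with 0 of 3 above 0 in every library. Their part in the values of *GSK3A* and the other members was not tested.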

How the data were processed

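The authors sequenced 1 library per D8 blastocyst, from 5 WT and 4 KO embryos, and deposited a table of TPM per gene for these 9 libraries. FastQC, fastp and kallisto are named in the submitters' processing notes, without versions, while the annotation and the step from transcripts to genes are not given in the sources used here. The labels and the paper describe different RNA extraction, library kits (stranded in the labels, SMART-Seq in the paper) and sequencers. It is therefore unknown whether antisense or overlapping genes could be told apart. Kallisto divides reads that match several transcripts among them. Columns were assigned to a genotype by name. A sheet of the paper's supplement is named for results without a library TE4, which may be TE_4. All 9 libraries were used here, and values without TE_4 are given for *WNT6*, *WNT11*, *AXIN1* and *CCND1*. No comparison needed to know which of the samples of a genotype a column holds, which the sources do not say.

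Genes with a median above 0.1 TPM over the 9 libraries (14599 of 21512) entered a linear model in R 4.3.3 with limma 3.58.1 (lmFit, then eBayes allowing a mean-variance trend), using log2(TPM + 1) and Benjamini-Hochberg adjustment over all of them, and were called where the adjusted p was under 0.05 and the log2 fold change over 1 in size. The count model of the paper was not run, since TPM are not counts. The limma step was tested on simulated data. For single genes and correlations, exact permutation tests over the 9 libraries (two-sided, all splits of 5 against 4 embryos for the genotypes) were computed with scipy 1.17.1, pandas 2.3.3 and numpy 2.4.6 in Python 3.11.15, with matplotlib 3.10.9 for plots. A score is the mean over a marker list of the z-score of log2(TPM + 1). All 48 members are symbols of RefSeq on ARS-UCD2.0, which was used only for names, neighbours and overlaps. Sequences and coordinates are not used here.

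The members and lists were chosen with earlier results of these data known. The text names *TEAD4*, the 2 members of each role with the highest mean TPM, members that were called or did not overlap, the 5 members with the smallest p, all ligands and inhibitors above 0.1 TPM and, of the other pathway genes, those called or not overlapping, *CTNNB1*, *RSPO1* to *RSPO4*, *ROR1* and *CCND1*. Other members are given by count and range, and values of genes outside this rule were singled out after they were seen. The tests were repeated with a pseudocount of 0.1 TPM, without a filter, for medians above 1 TPM, after scaling by size factors (median of ratios), after quantile normalization, with eBayes lacking the trend, and with each library left out in turn.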

Additional observations from a re-analysis of the deposited data

Results flagged for a closer look

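In the groups of 5 WT and 4 KO embryos, the gap of 1 library to its nearest neighbour was taken on log2(TPM + 1). As a share of the group's range, it was above Dixon's 95% critical value in 15 of 90 groups tested. Chance gives about 1 in 20 for independent, normally distributed values. Some groups held values at 0, and the totals contain genes also tested alone, so the count cannot be judged against that rate. Values below are printed in TPM, on which a gap can fall short of that critical value. In 2 of the 15, *RSPO1* and *RSPO4*, all other libraries of the group were at 0, so that any value above 0 passes; without such groups it was 13 of 88. TE_1 was low for *KREMEN1*, at 0.380 TPM against 2.65 to 3.12 TPM in the other KO embryos, and for *DVL2*, at 5.91 TPM against 10.9 to 12.0 TPM. TE_1 also had the fewest genes above 0 TPM and the smallest size factor (0.776).

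TE_2 was high for the target *AXIN2*, at 8.99 TPM against 3.75 to 4.29 TPM, and for the total of the targets, at 9.88 TPM against 4.52 to 5.17 TPM. It was also the KO embryo with *RSPO2*, at 1.73 TPM against at most 0.0665 TPM, and the only one with *RSPO1*, at 0.0474 TPM. TE_3 was high for *WNT4*, at 0.928 TPM against at most 0.108 TPM, and for *SFRP1*, at 0.870 TPM against 0.0820 to 0.119 TPM. TE_4 had the lowest total of ligands, at 17.3 TPM against 56.6 to 66.8 TPM.

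Among WT embryos, WT_4 was low for *CTNNB1*, at 81.8 TPM against 138 to 158 TPM, and for the total of the secretion factors, at 11.0 TPM against 42.2 to 58.1 TPM. WT_3 was low for *TCF7L1*, at 9.04 TPM against 11.7 to 12.7 TPM, and high for the total of the dishevelled genes, at 28.9 TPM against 20.5 to 22.3 TPM. WT_1 had *WNT11* at 0 TPM against 1.04 to 1.41 TPM, and WT_2 was the only WT embryo with *RSPO4*, at 0.0564 TPM.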

How the results depend on the processing

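No WNT gene and no other gene of the pathway was called under any alternative (0 throughout), and of 33 named genes that were fitted, 22 had a value under all 15 alternatives, and 15 of these kept their direction throughout. Calls over all genes rose from 3 to 8 with a pseudocount of 0.1 TPM, to 8 with a median above 1 TPM, to 5 with size factors, to 6 with quantile normalization and to 5 without trend, and fell to 2 without the filter, and leaving out each library gave 0 to 10, with 10 when TE_3 was left out and 0 when it was WT_3, WT_4 or any other KO embryo; the cause was not tested. A sign turned for *KREMEN1* (−0.017) and *WNT3A* (−0.19) with the pseudocount of 0.1 TPM, and for *WNT4* with size factors (0.023) and quantile normalization (0.065). Ranges over the left-out libraries that crossed 0 were −0.44 to 0.42 for *WNT6*, −0.51 to 0.42 for *WLS*, −0.17 to 0.64 for *FZD4*, −0.12 to 0.43 for *KREMEN1*, −0.50 to 0.19 for *DKK1*, −0.011 to 0.27 for *ZNRF3*, −0.015 to 0.33 for *DVL3*, −0.22 to 0.37 for *WNT3A*, −0.22 to 0.13 for *WNT4*, −0.11 to 0.56 for *DKK3* and −0.42 to 0.42 for *RSPO3*. With a median above 1 TPM, 3 ligands and 1 inhibitor remained, and with one above 0.5 TPM 1 inhibitor; with a library left out, 9 to 10 ligands and 3 to 4 inhibitors passed 0.1 TPM. No paired analysis was possible because the sample titles number the embryos without repeats and the numbers in the column names are not described as pairs. The number of embryos and the unknown depth limit these values.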

Other observations

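A few values of TE_2 stood apart and were singled out after they were seen. *SP5*, a target of β-catenin signalling, stood at 11.8 TPM in TE_2 and at most at 2.41 TPM in the other embryos, and *LGR5* at 4.58 TPM against at most 0.249 TPM. *RNF43* was also highest in TE_2, at 1.25 TPM against at most 0.963 TPM, and *DKK4* was above 0 there only, at 0.540 TPM. Some other targets were not highest in TE_2. *MYC* was at 6.51 TPM there and at 18.3 TPM in WT_4, *CCND1* at 1.16 TPM there and at 4.32 TPM in TE_3, *ZNRF3* at 1.49 TPM there and at 2.19 TPM in WT_3, and *NKD1* at 0.743 TPM there and at 1.52 TPM in WT_4. *AXIN2* was highest in TE_2 in TPM as deposited, but TE_2 also had the largest size factor (1.26). Divided by the size factors (1.00 for WT_4), *AXIN2* was lower in TE_2 than in WT_4.

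The inhibitors outside the member list were mostly at or near 0. *FRZB*, a secreted Frizzled-related protein, stood at 0.366, 0.157, 0.0273, 0 and 0.540 TPM over the WT embryos, with 0 in all KO embryos, and was too low to be tested with limma. Of the 12 looked up, *SOSTDC1*, *KREMEN2* and *APCDD1* had a median above 0.1 TPM, at 1.91, 0.943 and 0.259 TPM.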
